A study of Mus musculus with 2 samples.

Results

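Cycling endothelial cells of the mouse liver were taken as the cells that the deposited annotation names C-EC, matched by barcode to the count tables. They were 89 of 7669 annotated control cells and 408 of 8166 annotated c-Maf KO cells, 497 of 15835 in all, and 3.02% and 13.6% of the endothelial cells of their library. The single cells came from livers at postnatal day 15, sorted as endothelial and hematopoietic cells and captured in droplets with the 10X system. There was 1 control library and 1 c-Maf KO library, and each pooled 1 male and 1 female mouse. From the titles of the samples, the deletion was read as one in endothelial cells. No driver, deleted exon or control allele is given in the sources used here. With 1 library per group there were no replicates. No test between the groups was possible, and every interval given covers counting error only.

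A dividing cell first copies its DNA (S phase) and then passes through G2 into mitosis (M phase). E2F factors, released when cyclin-CDK complexes act on the retinoblastoma proteins, switch on replication genes, and the MuvB complex with B-Myb and Foxm1 switches on the genes of G2 and mitosis. Liver sinusoids are lined by an endothelium with open pores that takes up waste molecules through scavenger receptors such as stabilin-2, and c-Maf (gene Maf) is a leucine zipper transcription factor of these cells. Sinusoidal cells still divide in the young liver, as the organ grows.

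The deposited label was first set against its markers. Levels are given in CPM, the UMIs (unique molecular identifiers, 1 per captured transcript) of a gene summed over the cells, divided by all their UMIs and given as counts per 1000000 UMIs. C-EC summed 637591 UMIs in the control library, with a median of 6318 per cell (1034 to 17073). In the c-Maf KO library it summed 3507682 UMIs, with a median of 7634.5 per cell (545 to 24079). The other endothelial clusters (S, S2, KOS_1, KOS_2, KOS_3 and PV, abbreviations that the sources used here do not explain) held 2859 and 2583 cells with medians of 4948 and 7306 UMIs. At least 1 of 8 endothelial markers was found in 88 of 89 and 407 of 408 C-EC cells. Summed markers of B cells stood at 78.4 and 85.5 CPM in control and c-Maf KO C-EC, against 29.4 and 55.2 CPM in the other endothelial clusters. Pan-leukocyte markers stood at 50.2 and 48.5 CPM, against 30.8 and 27.3 CPM. Kupffer cell markers stood at 249 CPM in control and 14.5 CPM in c-Maf KO C-EC, a gap also seen in the other clusters (266 and 26.0 CPM), and their part in the results was not tested. Erythroid markers had 0 and 1 UMI. Of 3 lymphatic markers Pdpn and Ccl21a had no UMI in either library, and Prox1 had 11 UMIs in each. These lay in 9 control and 11 c-Maf KO C-EC cells, at 17.3 and 3.14 CPM. The 2 tables shared 25 barcodes, and no barcode was in C-EC of both libraries. Scrublet marked 1 control and 4 c-Maf KO C-EC cells as doublets.

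The markers of proliferation gave C-EC its name. Mki67 (chr7:135689784-135716361, minus strand, GRCm38), which encodes the Ki-67 protein of dividing cells, stood at 914 CPM (842 to 992) in control and 761 CPM (733 to 791) in c-Maf KO C-EC. In the other endothelial clusters it stood at 5.38 and 20.1 CPM. Top2a, the topoisomerase that untangles replicated DNA, had 961 and 824 CPM in C-EC and 6.79 and 31.6 CPM elsewhere. Cenpf, a protein of the mitotic kinetochore, had 627 and 518 CPM, against 4.94 and 9.0 CPM. The replication-dependent histone gene Hist1h2ap had 1035 and 1499 CPM, against 7.37 and 13.9 CPM. Those 4 genes helped to form the cluster, so their height in it is a description and not a finding. Mest, the imprinted gene also listed as a marker, did not set C-EC apart. It stood at 307 CPM in control C-EC and 232 CPM in the other control clusters, and at 1077 and 1096 CPM in the c-Maf KO library. By cluster of the c-Maf KO library, Mest reached 1234 CPM in KOS_1, 1007 CPM in KOS_2, 1241 CPM in KOS_3, 576 CPM in S, 505 CPM in S2 and 313 CPM in PV.

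Among control C-EC cells 86.5% held a UMI of Mki67, Top2a or both, and among c-Maf KO C-EC cells 90.4% did. The median UMIs of cells differ between groups, so each cell was also thinned to 1700 UMIs, which left out 10 control and 40 c-Maf KO C-EC cells. The shares were then 78.5% and 75.8%. In mature B cells (cluster B3, median UMIs 4414 and 3612), which are mostly at rest, the unthinned shares were 7.70% and 8.14%, and the thinned shares 2.53% and 3.81%. C-EC stood above that background in both libraries, but Mki67 and Top2a helped to form the cluster, so this too is a description.

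The deposited phase calls placed most C-EC cells in G2 or M phase (G2M). Of 89 control cells, 61 were called G2M (68.5%, 57.8% to 78.0%, Clopper-Pearson), 28 S (31.5%) and 0 G1. A count of 0 allows a G1 share of up to 3.37% by the floor of 3 counts, and up to 4.06% by Clopper-Pearson. Of 408 c-Maf KO cells, 284 were called G2M (69.6%, 64.9% to 74.0%), 107 S (26.2%, 22.0% to 30.8%) and 17 G1 (4.17%, 2.45% to 6.59%). The intervals of the S and G2M shares overlap between the libraries. The calls come from the same kind of transcript that formed the cluster, and no rate of division was read from them.

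**Figure D1:**
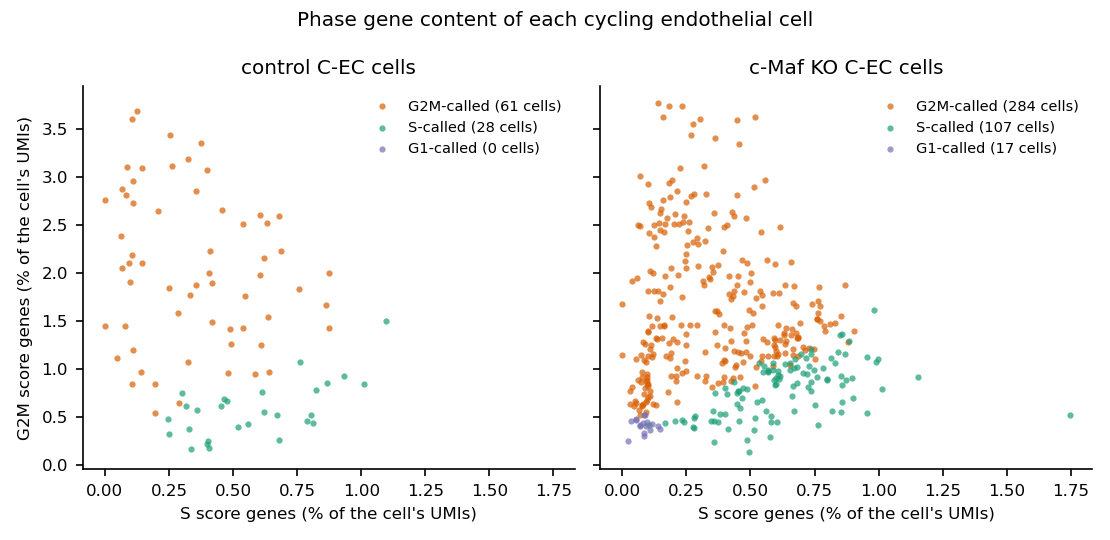
Each point is 1 C-EC cell, placed by the percent of its UMIs that come from the S phase score genes (horizontal axis) and from the G2M phase score genes (vertical axis), in either library, with colours for the deposited phase call. Cells called G2M sit high on the vertical axis, with medians of 2.0% in the control and 1.46% in the c-Maf KO library, and the 17 cells called G1 sit near the origin.

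Inside C-EC, cells called S and cells called G2M carried the transcripts known from those phases. Cdc6, which loads the replicative helicase onto DNA, had 117 CPM in S-called and 18.5 CPM in G2M-called control cells, and 92.6 and 25 CPM in c-Maf KO cells. Ccne2, the cyclin E2 of the G1 to S transition, had 156 and 30.1 CPM in control, and 96.4 and 33.3 CPM in c-Maf KO cells. Pcna, the sliding clamp of DNA polymerase, had 541 and 206 CPM in control, and 510 and 238 CPM in c-Maf KO cells. In the other direction, Cenpf had 82.9 CPM in S-called and 885 CPM in G2M-called control cells, and 164 and 660 CPM in c-Maf KO cells. Ccnb1, the cyclin B1 that drives entry into mitosis, had 19.5 and 199 CPM in control, and 41.9 and 124 CPM in c-Maf KO cells. Cenpa, the histone H3 variant of centromeres, had 73.2 and 474 CPM, and 136 and 434 CPM. The calls use most of these genes, so the split describes the cells and was not tested. The 17 G1-called c-Maf KO cells had little of the S phase genes, with no UMI of Ccne2 or Cdc6, but kept 239 CPM of Ccnb2 and 265 CPM of Cenpa. Top2a stood at 61.1 CPM in them.

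The promoters of the genes at both ends of that order are shown because E2F and MuvB act through short DNA motifs. Score genes were ranked by the ratio of G2M-called over S-called C-EC cells across both libraries together. Only genes with at least 100 UMIs in these cells and a RefSeq window were kept, and a single chromosome was left out. Psrc1 and Ccnb2 had the highest ratio among such G2M score genes, and Cdc6 and Chaf1b the lowest among such S score genes. Psrc1 encodes a spindle protein, Ccnb2 cyclin B2 and Chaf1b a subunit of the factor that places histones on new DNA. The windows run from 250 bases before to 50 bases after the RefSeq start on GRCm38.p6 and are written 5′ to 3′ on the gene's strand. Psrc1 lies at chr3:108383554-108383853 on the plus strand and Ccnb2 at chr9:70421505-70421804 on the minus strand. Cdc6 lies at chr11:98907901-98908200 and Chaf1b at chr16:93883651-93883950, both on the plus strand. Capitals mark CCAAT boxes (CCAAT, or ATTGG on the other strand), the cell cycle homology region or CHR (TTTGAA, or TTCAAA), and the E2F motif (GCGGGAA, or TTCCCGC).
Psrc1: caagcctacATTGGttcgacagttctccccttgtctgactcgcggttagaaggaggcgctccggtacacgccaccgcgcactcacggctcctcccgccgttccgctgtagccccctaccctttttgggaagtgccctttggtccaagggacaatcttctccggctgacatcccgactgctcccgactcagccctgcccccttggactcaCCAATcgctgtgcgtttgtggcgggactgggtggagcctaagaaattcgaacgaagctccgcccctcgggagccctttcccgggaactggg
Ccnb2: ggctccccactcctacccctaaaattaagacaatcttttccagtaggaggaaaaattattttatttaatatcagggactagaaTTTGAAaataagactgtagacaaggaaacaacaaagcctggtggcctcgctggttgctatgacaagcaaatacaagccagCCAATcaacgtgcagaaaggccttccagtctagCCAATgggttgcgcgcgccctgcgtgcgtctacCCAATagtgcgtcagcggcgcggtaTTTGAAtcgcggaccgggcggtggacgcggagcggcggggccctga
Cdc6: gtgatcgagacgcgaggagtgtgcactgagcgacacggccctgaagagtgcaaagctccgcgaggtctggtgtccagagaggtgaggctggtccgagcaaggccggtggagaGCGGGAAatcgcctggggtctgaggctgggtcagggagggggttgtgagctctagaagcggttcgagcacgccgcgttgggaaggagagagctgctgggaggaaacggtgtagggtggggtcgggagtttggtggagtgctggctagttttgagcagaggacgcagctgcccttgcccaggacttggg
Chaf1b: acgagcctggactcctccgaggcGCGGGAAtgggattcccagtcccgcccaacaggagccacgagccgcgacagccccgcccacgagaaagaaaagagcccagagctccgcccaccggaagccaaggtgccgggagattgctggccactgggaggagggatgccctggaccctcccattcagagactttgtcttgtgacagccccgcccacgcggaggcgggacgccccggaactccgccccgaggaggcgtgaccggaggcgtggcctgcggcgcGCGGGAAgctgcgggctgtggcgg

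Psrc1 has 2 RefSeq windows, of which the first is shown. That window held 2 CCAAT boxes and no exact TTTGAA or TTCAAA, and Ccnb2 held 3 CCAAT boxes and 2 CHR motifs. Only exact letters were matched, so variants of a motif were not counted. Cdc6 held 1 and Chaf1b 2 E2F motifs, and neither held a CCAAT box or a CHR. Psrc1 had no UMI in the 28 control cells called S and 64.7 CPM in those called G2M, with 5.08 and 40.0 CPM in c-Maf KO cells. Ccnb2 had 9.76 CPM (2 UMIs) and 368 CPM in control cells, and 40.6 and 266 CPM in c-Maf KO cells. Chaf1b had 122 and 46.2 CPM in control cells, and 118 and 31.7 CPM in c-Maf KO cells. Of 54 G2M score genes 47 had a RefSeq window, and 65.4% of their 52 windows held a CHR and 75% a CCAAT box. Of 43 S score genes 31 had one, and 17.6% of their 34 windows held a CHR, 67.6% a CCAAT box and 41.2% an E2F motif. Over all 32851 windows, 17.9% held a CHR, 37.4% a CCAAT box and 4.60% an E2F motif, and the G2M list had E2F in 1.92%. Histone genes were not matched to a window. These are matches of letters and not measured binding.

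The replication-dependent histones differed between the S-called cells of the 2 libraries. These genes are switched on as DNA is copied, and their transcripts end mostly in a stem loop in place of a poly(A) tail, so a poly(A) library counts them incompletely. Hist1h1b, the linker histone H1.5, had 78.1 CPM in S-called and 284 CPM in G2M-called control cells, a log2 ratio of 1.83 (1.11 to 2.72). In c-Maf KO cells it had 515 CPM in S-called and 443 CPM in G2M-called cells, a log2 ratio of -0.22 (-0.38 to -0.05). Hist1h2ae, a histone H2A gene, had 87.8 and 696 CPM in control cells, and 542 and 608 CPM in c-Maf KO cells. Hist1h2ap had 571 and 1255 CPM in control cells, and 1751 and 1532 CPM in c-Maf KO cells. In cells thinned to 1700 UMIs, the median S-called cell held 1 histone UMI in the control library (28 cells) and 6 in the c-Maf KO library (92 cells). The median G2M-called cell held 6 (51 cells) and 7 (259 cells). The same S-called cells held thinned medians of 9 and 10 UMIs of the S list, and of 9.5 and 14 UMIs of the G2M list. The part of that difference in G2M transcripts was not tested. The difference rests on 28 control cells of 1 library and was not tested.

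**Figure D2:**
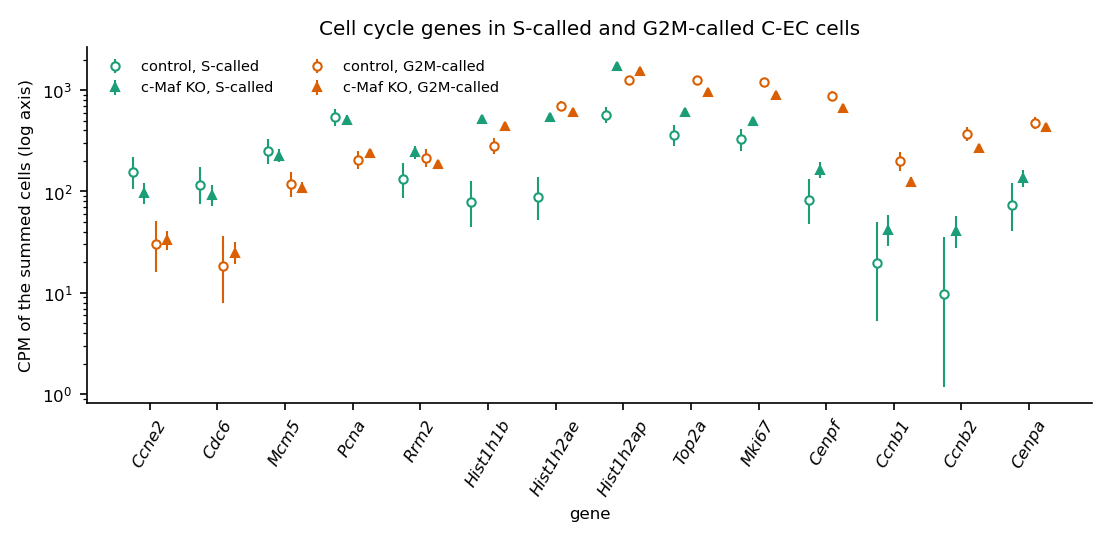
Levels in CPM on a log axis of phase genes in S-called and G2M-called C-EC cells of each library, with exact Poisson 95% intervals as bars. Ccne2, Cdc6, Mcm5 and Pcna stand higher in S-called cells of both libraries, mitotic genes such as Ccnb2 and Cenpf stand higher in G2M-called cells, and the histone genes stand lower in S-called control cells than in the other 3 sets of cells.

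Most endothelial cells that the authors called S lay outside C-EC. Of 142 S-called control endothelial cells 28 (19.7%) were in C-EC, and of 603 S-called c-Maf KO endothelial cells 107 (17.7%) were. G2M-called cells lay mostly inside it, with 61 of 73 (83.6%) in control and 284 of 307 (92.5%) in c-Maf KO. KOS_1 alone held 308 S-called cells. Thinned to 1700 UMIs, the median S-called KOS_1 cell held 6 UMIs of the S list, 5 of the G2M list and 0 of histones, against 10, 14 and 6 in S-called c-Maf KO C-EC cells. G1-called KOS_1 cells had medians of 1, 2 and 0. Summed over cells, Mcm5, a subunit of the replicative helicase, had 195 CPM in S-called KOS_1 cells and 226 CPM in S-called c-Maf KO C-EC cells. Hist1h2ap had 37.6 and 1751 CPM, and Rrm2, the small subunit of ribonucleotide reductase, 53.1 and 245 CPM. S-called KOS_1 cells thus had Mcm5 near the C-EC level and few histone transcripts.

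Outside the cell cycle lists, C-EC cells resembled the sinusoidal clusters of their own library. Across 9666 genes, the log2(CPM + 10) profile of control C-EC correlated with that of S at r = 0.93, of S2 at 0.922 and of PV, the large vessel cluster, at 0.797. Across 10145 genes, c-Maf KO C-EC correlated with KOS_1 at 0.963, KOS_2 at 0.940, KOS_3 at 0.909, S at 0.907, S2 at 0.884 and PV at 0.879. Genes are not independent, all profiles of a library share its capture, and the larger clusters are sampled more deeply, so these values order the clusters and no more. Over the endothelial identity lists, 5 of 152 genes differed by 2-fold or more between control C-EC and S, 15 from S2 and 74 from PV. In the c-Maf KO library 2 of 155 differed from KOS_1, 4 from KOS_2, 12 from KOS_3, 51 from S, 63 from S2 and 64 from PV.

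Single cells gave the same order. Each C-EC cell, thinned to 1700 UMIs, was assigned to the non-cycling cluster whose profile outside the cell cycle lists made its counts most likely. Of 79 control cells, 51 (64.6%) went to S, 28 to S2 and 0 to PV. Of 368 c-Maf KO cells, 198 (53.8%) went to KOS_1, 107 (29.1%) to KOS_2, 55 (14.9%) to KOS_3, 6 to S, 2 to S2 and 0 to PV. KOS_2 took 6.34% of female-type and 11.6% of male-type cells, so most cells placed there were of neither type. The cells of KOS_2 itself were shallow, with a median of 1644.5 UMIs, and the part of depth in this share was not tested. The rule placed 25 of 27 held-out control PV cells and 59 of 67 held-out c-Maf KO PV cells back in PV, so it could find such cells. It was less sure between neighbours, with 255 of 366 held-out control S cells and 97 of 133 KOS_2 cells placed back in their cluster. With the endothelial identity lists alone, control cells split 43 to S and 36 to S2. The c-Maf KO cells then split 138 to KOS_1, 132 to KOS_2, 80 to KOS_3, 11 to S, 3 to S2 and 4 to PV.

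**Figure D3:**
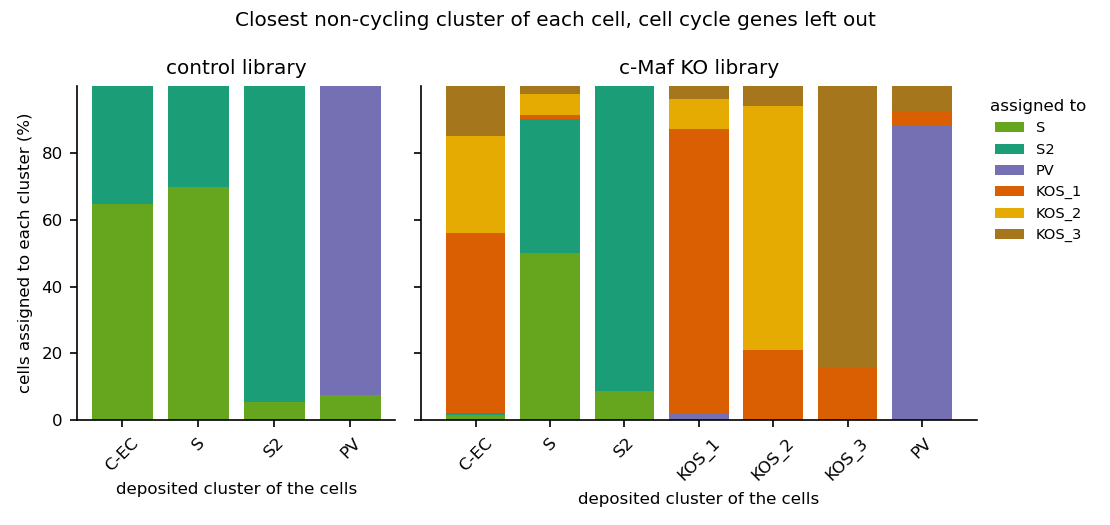
Stacked bars give the percent of cells assigned to each non-cycling endothelial cluster of their own library. The assignment used counts outside the cell cycle lists, after thinning to 1700 UMIs. Bars are shown for C-EC and for held-out cells of the non-cycling clusters. Control C-EC cells went to S (51 of 79) and S2 (28). The c-Maf KO C-EC cells went mostly to KOS_1 (198 of 368), KOS_2 and KOS_3, and no C-EC cell of either library to PV.

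Maf itself (chr8:115682942-115707794, minus strand) was the check of the genotype. In control C-EC it had 881 UMIs in 81 of 89 cells, or 1382 CPM (1292 to 1476). In c-Maf KO C-EC it had 140 UMIs in 30 of 408 cells, or 39.9 CPM (33.6 to 47.1), a log2 ratio of -5.11 (-5.38 to -4.85). After thinning, 84.8% of control and 2.99% of c-Maf KO C-EC cells held a Maf UMI, against 2.65% and 1.06% of mature B cells. The remaining transcripts were unevenly spread. With all UMIs used, 9 c-Maf KO C-EC cells were assigned to S or S2, and they held 77 of the 140 Maf UMIs (8 of 9 cells, 1074 CPM, up to 26 in a cell). Maf was among the genes used for that assignment, so its height in these cells was partly set in advance. The other 399 cells held 63 Maf UMIs in 22 cells, or 18.3 CPM. The clusters S and S2 of the c-Maf KO library themselves had 1457 and 1998 CPM of Maf, and KOS_1 had 9.30 CPM. Of the 9 cells 6 were of female type (Xist and no Y-linked UMI) and 0 of male type, where all 408 cells held 207 and 43. S and S2 of the c-Maf KO library held 136 and 111 female-type cells and 0 male-type cells. Maf had 49.4 CPM in female-type and 6.45 CPM in male-type c-Maf KO C-EC cells, and the part of the mouse in this was not tested. Without the 9 cells, picked in part by Maf itself, the Maf log2 ratio was -6.23.

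**Figure D4:**
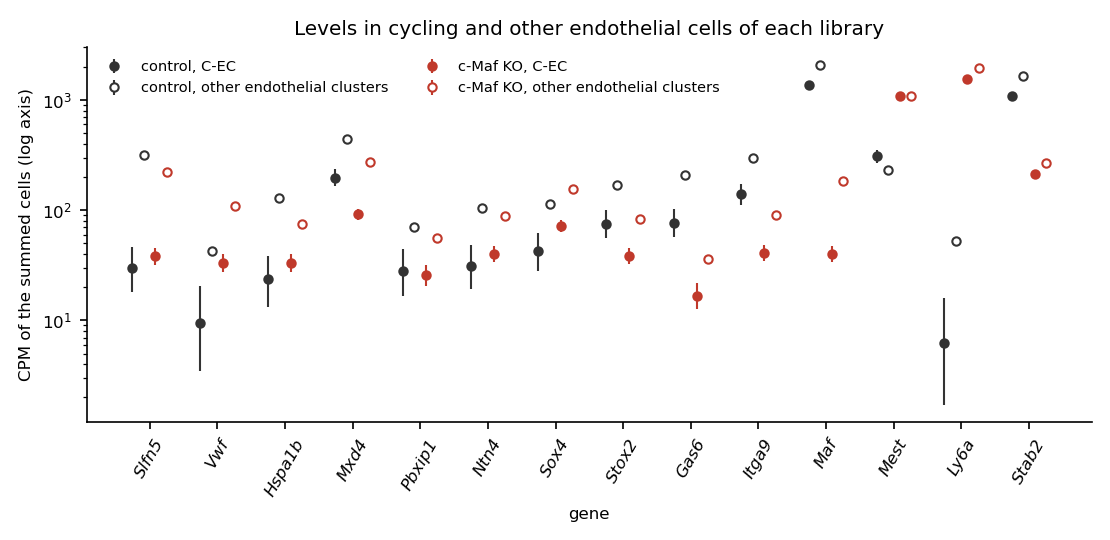
Levels in CPM on a log axis in C-EC (filled points) and in the other endothelial clusters (open points) of each library, with exact Poisson 95% intervals as bars. The genes are Slfn5, Vwf, Hspa1b, Mxd4, Pbxip1, Ntn4, Sox4, Stox2, Gas6, Itga9, Maf, Mest, Ly6a and Stab2. Slfn5, Vwf, Mxd4 and Gas6 stand lower in C-EC of both libraries, while Mest and Maf differ between the libraries in both sets of cells.

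C-EC was compared with the other endothelial clusters of its own library, and members of each vessel identity list were called lower in it more than higher. A call of higher or lower was made by size alone. It asked for a ratio of 1.5-fold or more, an interval that leaves out equality, and 50 or more UMIs in the 2 sums together. The clustering used these genes, so the calls are descriptions. Over all genes, 11.8% were called higher and 7.78% lower in control C-EC (19.6% in either direction). In c-Maf KO C-EC the shares were 9.1% and 10.1% (19.2%). Of 30 pan-endothelial genes, such as those of junctions and VEGF receptors, 8 were lower in control C-EC and 5 in c-Maf KO C-EC. Of the sinusoidal genes, 10 of 27 were lower in control (median log2 -0.52) and 10 of 28 in c-Maf KO C-EC (-0.40). Stab2, the hyaluronan scavenger receptor, had 1079 CPM in control C-EC and 1639 CPM in the other control clusters, and 212 and 268 CPM in the c-Maf KO library. Oit3, a marker of sinusoidal cells, had 737 and 902 CPM, and 771 and 827 CPM. Of the genes of the periportal side of the sinusoid, 15 of 21 were lower in control (median -0.90) and 13 of 21 in c-Maf KO C-EC (-0.86). Arterial genes were lower in 8 of 15 (-1.05) and 9 of 19 (-0.76). Against the largest sinusoidal cluster alone, S2 in control and KOS_1 in c-Maf KO, the periportal counts were 14 of 19 and 10 of 20, and the arterial counts 5 of 11 and 2 of 12. Sinusoidal genes were then lower in 16 of 27 control members and, in the c-Maf KO library, in 2 of 28 with 3 higher.

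The 10 genes with the lowest ratio of C-EC over the other clusters in both libraries came next. Slfn5, a schlafen family member, had 29.8 CPM in control C-EC and 316 CPM in the other control clusters, and 38.2 and 220 CPM in the c-Maf KO library. Mxd4, a partner of Max that opposes Myc, had 198 and 441 CPM, and 92.1 and 275 CPM. Vwf, the von Willebrand factor of larger vessels, had 9.41 and 42.9 CPM, and 33.1 and 109 CPM. Gas6, a ligand of the TAM receptors, had 76.9 and 207 CPM, and 16.8 and 36.2 CPM. Ntn4, Sox4, Stox2, Itga9, Pbxip1 and the heat shock gene Hspa1b completed the list. Over both libraries 3.36% of genes were called lower in each, and 6.6% higher. Beyond the cell cycle lists, the 10 genes with the highest ratio in both libraries were Kif14, Sapcd2, Aspm, Prr11, Mxd3, Kif18b, Iqgap3, Depdc1a, Spag5 and Ankle1. Aspm, a spindle pole protein, had 171 and 0.833 CPM in control, and 127 and 1.46 CPM in c-Maf KO. Iqgap3, a scaffold of dividing cells, had 154 and 0.385 CPM, and 84.1 and 1.36 CPM. Mxd3, in contrast to Mxd4, had 135 and 1.03 CPM, and 88.1 and 1.36 CPM.

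The c-Maf KO library was then compared with the control library within C-EC. Of 7961 genes with at least 50 UMIs, 454 (5.7%) were called higher and 1165 (14.6%) lower in c-Maf KO C-EC, 20.3% in either direction, and the median log2 ratio of all genes was -0.15. TMM scaling, which centres the bulk of genes, moved every ratio up by 0.19. It turned that split into 812 higher and 724 lower, so the higher genes made up 28.0% of the calls on the CPM scale and 52.9% under TMM. Ratios below are on the CPM scale, and the counts of a list under TMM follow where they differ. In the other endothelial clusters 13.2% of 11732 genes were called higher and 14.7% lower (27.9% in all).

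Sinusoidal transcripts were lower in the cycling cells of the c-Maf KO library, as they were in its non-cycling cells. Of 26 sinusoidal identity genes with at least 50 UMIs (30 listed), 19 were lower and 0 higher, with a median of -1.55 (17 lower under TMM). Dnase1l3, a secreted DNase, had 1349 CPM in control and 47.9 CPM in c-Maf KO C-EC, a log2 ratio of -4.81 (-5.06 to -4.58), with -3.58 in the other endothelial clusters. Stab2 had a log2 ratio of -2.35 (-2.50 to -2.20), and -2.61 in the other clusters. Wnt2, a Wnt ligand of the central vein side, went from 227 to 20.2 CPM (-3.48, -3.92 to -3.07), with -2.79 elsewhere. The pericentral list had 10 of 15 genes lower and 1 higher (median -1.93), and 9 and 2 under TMM. Scavenger and endocytic receptors had 10 of 16 lower and 0 higher (-1.46), and 10 and 1 under TMM. Among them Msr1, the macrophage scavenger receptor, went from 152 to 17.7 CPM, and Dab2, an endocytic adaptor, from 557 to 139 CPM. The lysosomal proteases Ctsl, 1572 to 258 CPM, and Lgmn, 663 to 59.9 CPM, were also lower. Kupffer cells also express some of these scavenger and protease genes. The 6 Kupffer markers summed to 249 CPM in control and 14.5 CPM in c-Maf KO C-EC, with Adgre1 at 0 in control, and their part in these ratios was not tested. Oit3, by contrast, with 737 and 771 CPM (0.06, -0.08 to 0.21), was not called. Of 30 pan-endothelial genes 7 were lower and 2 higher (-0.20), and 2 and 2 under TMM.

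Of 24 genes of continuous capillaries and endothelial progenitors with at least 50 UMIs (31 listed), 9 were higher and 2 lower (median 0.43), and 12 and 1 under TMM. In the other endothelial clusters 10 of 30 were higher and 9 lower. The 2 lower members in C-EC were Tspan7, a tetraspanin (-2.85), and Cldn5, the claudin of endothelial tight junctions (-0.76, not called under TMM). Ly6a (chr15:74994877-74998031, minus strand), which encodes the stem cell antigen Sca-1, had 4 UMIs in 2 control C-EC cells, 6.27 CPM, and 5473 UMIs, 1560 CPM, in c-Maf KO C-EC. Its log2 ratio was 7.79 (6.60 to 9.83), with 5.21 in the other clusters. Thinned to 1700 UMIs, 1.27% of control and 77.7% of c-Maf KO C-EC cells held a Ly6a UMI, and 19.8% and 26.6% of mature B cells, which express it. Cd34, a sialomucin of capillaries and progenitors, went from 39.2 to 340 CPM, a log2 ratio of 3.09 (2.55 to 3.75). Outside that list, Pcp4l1, a relative of the calmodulin regulator Pcp4, had 0 UMIs in control and 571 in c-Maf KO C-EC, at least 34.6-fold higher against a floor of 3 counts over the control cells. Aplnr, the apelin receptor and a listed member, had 3 and 519 UMIs, a log2 ratio of 4.75 (3.42 to 7.26). Tcf15, a factor of capillary endothelium, had 1 and 164 UMIs. Pdgfb, a tip cell gene that recruits pericytes, had 1 and 149 UMIs.

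For some genes of the periportal list the ratio lay further from equality in C-EC than in the other clusters, though that difference was not tested. Efnb2, the arterial ephrin, went from 29.8 to 81.8 CPM (1.42, 0.79 to 2.21), with 0.32 in the other clusters. Mecom, a zinc finger transcription factor, had 2 and 166 UMIs (3.6, 2.04 to 6.97), with 1.33 elsewhere. Ednrb, the endothelin B receptor, went from 602 to 162 CPM (-1.90), with -0.94 elsewhere. Of 8 arterial genes with at least 50 UMIs (22 listed), 3 were higher and 1 lower (4 and 1 under TMM), so most of that list was too low to call. Of 17 periportal genes 5 were higher and 7 lower (median 0.01), and 7 and 7 under TMM. Of 15 venous genes 4 were higher and 5 lower (-0.12), a balance that turned to 5 and 4 under TMM (0.07). Of 17 tip cell and VEGF genes 2 were higher and 4 lower (0.05), and this too turned, to 4 and 2, under TMM (0.24). Of 9 Notch genes 0 were higher and 1 lower (0.14), and 2 and 1 under TMM.

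**Figure D5:**
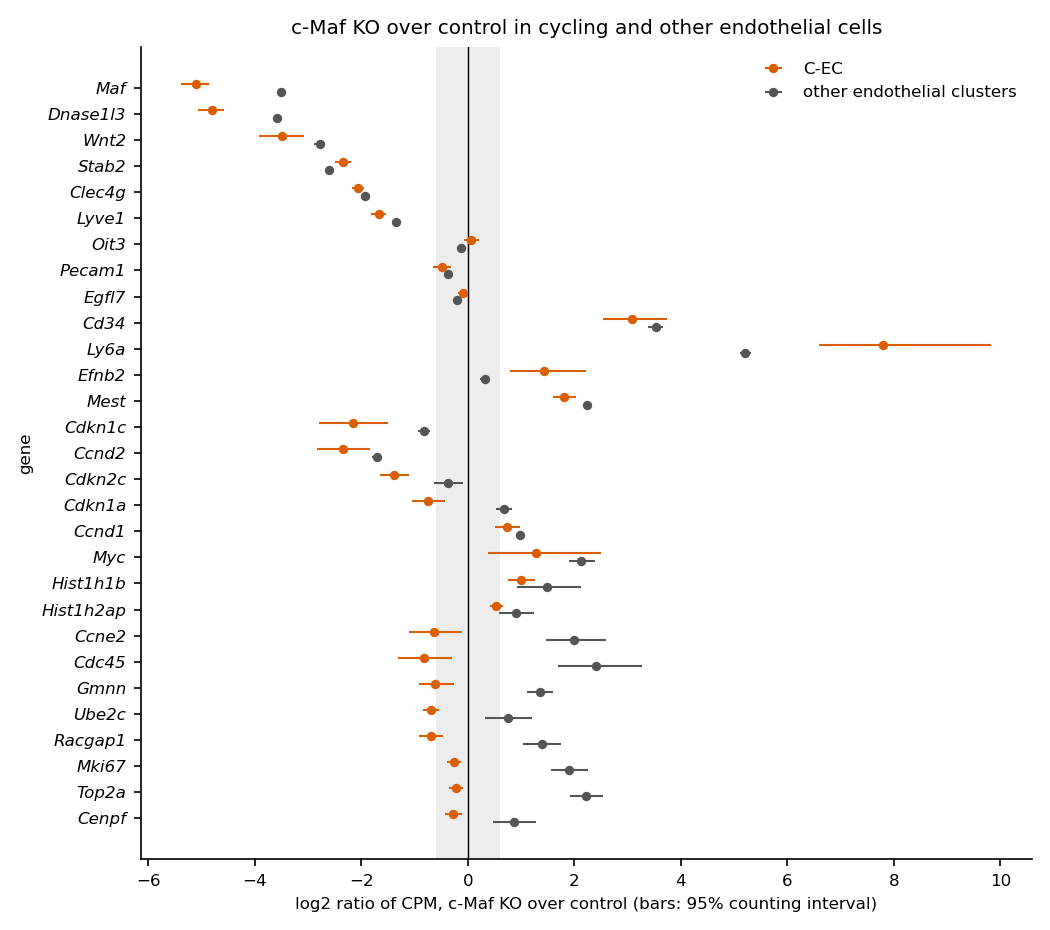
Log2 ratios of c-Maf KO over control for single genes. In C-EC, over list members with at least 50 UMIs, sinusoidal genes had a median of -1.55 and ribosome biogenesis genes one of 0.61. The S and G2M lists had medians of -0.10 and -0.32, beside -0.15 for all genes.

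Genes of the cell cycle machinery were then compared between the libraries within C-EC. Over all genes 5.7% were called higher and 14.6% lower, the shares to set beside the counts below. Of 42 S score genes 1 was higher and 4 lower (median -0.10), and under TMM 4 were higher and 1 lower (0.09). Of 54 G2M score genes 0 were higher and 7 lower (-0.32), and 4 lower under TMM (-0.14). Mki67 (-0.27, -0.39 to -0.13), Top2a (-0.22) and Cenpf (-0.28) were not called. Replication licensing genes had 0 of 41 higher and 2 lower (-0.10), and 2 higher and 1 lower under TMM (0.09). Kinetochore genes had 0 of 25 higher and 4 lower (-0.41), and 2 lower under TMM. Foxm1, the mitotic transcription factor, went from 110 to 63.0 CPM (-0.81), and Ube2c, a ubiquitin enzyme of mitotic exit, from 681 to 420 CPM (-0.70, not called under TMM). Nek2, a centrosome kinase, went from 72.1 to 29.6 CPM (-1.29). In the other endothelial clusters, 35 of 43 S score genes and 34 of 45 G2M score genes were higher in the c-Maf KO library.

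The regulators of entry into the cycle formed a list of their own. Of 23 genes for G1 cyclins, CDKs, their inhibitors and the Rb-E2F proteins, 2 were higher and 9 lower (median -0.35), and 2 and 5 under TMM. Cdkn2c, the p18 inhibitor of CDK4 and CDK6, had 253 CPM (215 to 295) in control and 96.9 CPM (86.9 to 108) in c-Maf KO C-EC, a log2 ratio of -1.38 (-1.66 to -1.10). Cdkn1c, the p57 inhibitor, went from 59.6 to 13.4 CPM (-2.16, -2.80 to -1.50). Cdkn2d, the p19 inhibitor, went from 168 to 73.8 CPM (-1.19, -1.51 to -0.85). Cdkn1a, the p21 inhibitor, went from 182 to 109 CPM (-0.75, -1.05 to -0.43), and Cdkn2a from 28.2 to 14.0 CPM (-1.04, -1.82 to -0.15). Under TMM the last 2 were not called (-0.56 and -0.85), and Cdkn1a was not called in female-type cells (-0.33). These 5 were named because they were called lower. Of the other inhibitors on the list, Cdkn1b, the p27 inhibitor, had 73.7 and 50.8 CPM (-0.55, -1.01 to -0.04) and was not called, and Cdkn2b, with 0 and 3 UMIs, was too low to call. Cdkn2d, Cdkn2a, Cdkn1b and Cdkn2b were named after their values were seen. In the other control clusters Cdkn2c stood at 14.4 CPM and Cdkn1a at 34.0 CPM, both below C-EC. Rbl2, the p130 pocket protein of resting cells, was lower (-1.34), as was Ccnd2, cyclin D2, from 107 to 21.1 CPM (-2.34). Ccnd1, cyclin D1, was higher, from 248 CPM (211 to 290) to 414 CPM (393 to 436), a log2 ratio of 0.74 (0.50 to 0.99), with 0.98 in the other clusters. Myc, the growth factor-induced transcription factor, went from 14.1 to 35.9 CPM (1.28, 0.38 to 2.51).

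Lists of growth and DNA supply followed. Of 29 ribosome biogenesis genes with at least 50 UMIs (31 listed, Myc among them), 11 were higher and 1 lower (median 0.61), and 18 and 0 under TMM. Fbl, the methyltransferase fibrillarin of the nucleolus, went from 67.4 to 145 CPM (1.09), and Nhp2, a protein of small nucleolar RNPs, from 104 to 202 CPM (0.96). Npm1, nucleophosmin, went from 419 to 763 CPM (0.86), and Ncl, nucleolin, with 522 and 724 CPM (0.47), was not called. In the other endothelial clusters 22 of 31 were higher. Of 20 nucleotide synthesis genes 3 were higher and 0 lower (0.40), and 8 and 0 under TMM. Atic, of purine synthesis, went from 14.1 to 41.9 CPM (1.5), and Shmt2, of mitochondrial one-carbon supply, from 14.1 to 37.1 CPM (1.32). Tyms, thymidylate synthase, with 204 and 216 CPM, was not called. Of 26 replication-dependent histones with at least 50 UMIs (58 listed), 6 were higher and 0 lower (0.52), and 12 and 0 under TMM. Hist1h1b went from 218 to 435 CPM (0.99, 0.75 to 1.26). Hist1h2ap, with a log2 ratio of 0.53 (0.42 to 0.65), was not called on the CPM scale. Of 38 respiratory chain genes 0 were called (0.20), and under TMM 5 were higher (0.39). Of 19 glycolysis genes 0 were higher and 1 lower, and 1 and 1 under TMM.

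Interferon-stimulated genes were lower in 11 of 24 members and higher in 0 (median -0.56), and in 6 and 1 under TMM. Ifi204, a DNA sensor, had a log2 ratio of -2.06 and Ifit3 one of -1.82. In female-type cells alone 3 were higher and 3 lower (-0.16), so this count differed between all cells and female-type cells. Of 22 p53 target genes 2 were higher, Btg2 (0.77) and Plk2 (0.72), and 3 lower (median 0.00), with 2 and 1 under TMM. Of 13 genes of the BMP9 pathway and its Id targets 1 was higher, Id2 (0.87), and 3 lower, among them Id4 (-2.42), with 1 and 2 under TMM. Of 9 imprinted genes with at least 50 UMIs (25 listed), 3 were higher and 3 lower, and 3 and 2 under TMM. Mest was among the higher ones with a log2 ratio of 1.81 (1.60 to 2.02), and 2.24 in the other clusters. Plagl1, a zinc finger regulator of imprinted genes, was lower (-1.21).

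The pooled mice could be told apart in part by Xist and 4 Y-linked genes. Control C-EC held 37 female-type and 10 male-type cells, c-Maf KO C-EC 207 and 43, and the rest fell in neither type. These cells describe the mice and are not replicates. Sinusoidal genes were lower in 17 of 25 members in female-type and 15 of 19 in male-type cells. Ribosome biogenesis genes were higher in 10 members and lower in 1 among female-type cells. Male-type cells had 7 higher and 0 lower. The G2M list had 7 lower and 0 higher members among female-type cells (median -0.25). Of 39 members in male-type cells 17 were lower (-0.69), and these rest on 10 control cells. Of c-Maf KO cells thinned and assigned, 151 of 205 female-type cells went to KOS_1 and 13 to KOS_2, and 30 of 43 male-type cells to KOS_1 and 5 to KOS_2.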

How the data were processed

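The authors deposited 1 table of whole UMI counts per gene (32285 genes) and barcode for each library, and 1 annotation table. The annotation holds, per the file headers, the gene count of each cell, its percent of mitochondrial UMIs, a phase call and a cluster name at resolution 0.5. The submitters' processing notes name Seurat 3.2.3, Cell Ranger 4.0.0 and FastQC 0.11.3, and mm10 as the build, with no role stated. Annotated cells had 200 or more genes and under 20% mitochondrial UMIs, and most had at most 5000 genes. In the counts some annotated c-Maf KO cells exceeded 5000 genes, with maxima of 5048 in PV, 5002 in KOS_1 and 5001 in cluster C1.

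From these, UMIs were summed over cells per library and scaled to CPM. Log2 ratios had 0.5 UMI added to each sum. Exact Poisson, Clopper-Pearson and conditional binomial intervals are at 95%. Where a gene had no UMI, its bound used 3 counts. Thinning drew 1700 UMIs per cell, the tenth percentile of C-EC cells. Cells were assigned by multinomial likelihood among clusters of at least 50 cells, with cells held out for a check. The ratios and calls were run on simulated Poisson counts without variation between cells, mice or libraries, which checks counting error only. Python 3.11.15, numpy 2.4.6, pandas 2.3.3, scipy 1.17.1, scanpy 1.11.5 (Scrublet), matplotlib 3.10.9 and edgeR 4.0.16 (TMM factors only) were used. Promoters came from RefSeq on GRCm38.p6 and gene coordinates from GENCODE M21 on GRCm38.

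The members, gene lists (34) and settings were chosen with earlier results of these data known. Named genes were Maf and the 5 cluster markers, the 10 highest and 10 lowest called ratios with at least 100 UMIs, the 10 genes highest and lowest in C-EC against the other endothelial clusters, and up to 4 called members per direction of each list with its most abundant uncalled member. The extremes left out Xist, Tsix and Y-linked genes, Gm and Rik models, genes for immunoglobulins, hemoglobins, ribosomal proteins and mitochondrial transcripts, and markers of other cell types. Cd34, Npm1 and the genes whose levels are given by phase were named after their values were seen. Alternatives covered TMM scaling, equal weight of cells, thinning, other thresholds, cells of 1 type, the phase mix, doublets, other cells' transcripts and the top cell of each gene.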

Additional observations from a re-analysis of the deposited data

Results flagged for a closer look

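For 9 cell cycle genes the c-Maf KO over control log2 ratio was called lower in C-EC and higher in the other endothelial clusters. The difference between the 2 ratios was not tested. In the other clusters 496 of 2583 c-Maf KO cells and 114 of 2859 control cells were called S, and the part of that mix was not tested. Cdc45, of the replicative helicase, had -0.83 in C-EC and 2.40 in the other clusters. Cenpu, of the inner kinetochore, had -0.81 and 1.46. Ccne2 had -0.64 and 1.99, and Gmnn, the licensing inhibitor geminin, -0.61 and 1.35. Wee1, the kinase that holds back mitosis, had -0.66 and 0.61. Ube2c had -0.70 and 0.74, Sgo1, the guardian of sister chromatid cohesion, -0.65 and 1.95, and Racgap1, of the cytokinetic spindle, -0.70 and 1.38. Cdkn1a had -0.75 and 0.68. Under TMM scaling all but Cdc45 fell short of a call in C-EC.

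Among barcodes without annotation, 246 in the control and 250 in the c-Maf KO table had over 5000 genes. Of these 79 and 111 carried endothelial markers and no pan-leukocyte UMI, with medians of 23987 and 23718 UMIs. Mki67 or Top2a had at least 2 UMIs in 16 of the control barcodes (20.3%, 12.0% to 30.8%) and 68 of the c-Maf KO barcodes (61.3%, 51.5% to 70.4%). These deep cells lie outside every comparison above, and whether some are doublets was not tested.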

How the results depend on the processing

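Gene counts for c-Maf KO over control in C-EC moved by more than 1.5 times under 5 settings. Against 454 higher and 1165 lower, the counts were 812 higher under TMM scaling (724 lower), 171 and 279 with thinned cells, 259 and 462 with at least 200 UMIs, 225 and 497 at 2-fold, and 225 and 350 in male-type cells. For C-EC over the other clusters, thinning gave 517 higher and 412 lower in control and 656 higher in c-Maf KO, against 1249, 822 and 1015. Cells with Mki67 or Top2a were 100% of female-type control cells, 98.6% of female-type and 75.8% of thinned c-Maf KO cells, and G2M-called cells 79.1% of male-type c-Maf KO cells. Of 127 named genes called in either direction, 106 kept the call under TMM, 122 at the control phase mix, 104 among female-type cells and 35 among the fewer male-type cells, and none took the opposite call. With the deep unannotated barcodes added, chosen after seeing the data, 105 kept it, and Vwf (1.70 to 0.29), Ect2 (-0.94 to -0.58) and Cdc45 (-0.83 to -0.47) were among those lost. Without the 9 c-Maf KO cells assigned to S or S2, also added later, 126 kept it. No paired analysis was possible because each group has 1 library.

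Depth limits low genes most. Control C-EC sums 637591 UMIs, so a floor of 3 counts is 4.71 CPM. Each library pools mice of both sexes, and mouse, library and genotype cannot be told apart. The deposited phase calls and the clusters rest on the genes described.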
